A study of Rattus norvegicus with 9 samples.

Results

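The genes described here encode the proteins of the mitochondrial ribosome, taken as every gene whose symbol begins with Mrpl or Mrps. They were 66 of the 17109 genes in the table, 42 with the Mrpl and 24 with the Mrps prefix. All libraries came from alveolar macrophages of male Wistar rats (225 to 250 g) that had received an intratracheal instillation under anaesthesia. The instillate was PBS in 3 libraries and nitrogen mustard (NM, as mechlorethamine hydrochloride, 0.125 mg/kg) in the other 6, of which 3 were collected at 1 d and 3 at 28 d. The groups are called PBS, NM day 1 and NM day 28, with replicates numbered 0, 1 and 2. The labels give the PBS group a day of 0, so no control of the age of the day 28 rats was analysed here. The design text calls the replicates biological but does not say how many rats stand behind each library, so p-values measure the spread between these libraries.

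Mitochondrial ribosomes translate the few messenger RNAs of the mitochondrial genome, which encode core subunits of the oxidative phosphorylation complexes. Their proteins are encoded in the nucleus, made on cytosolic ribosomes and imported, and they assemble with mitochondrial rRNA into a large and a small subunit. Many have homologues in the bacterial ribosome, and others are found only in mitochondria. A symbol with the prefix Mrps does not always place the protein in the small subunit: Mrps30 and Mrps18a are parts of the large one.

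Expression was measured as FPKM (fragment counts scaled to transcript length and library size), summed over the transcripts of each symbol. Of the 66 genes, 65 had at least 1 FPKM in at least 3 of the 9 libraries and were tested among 9885 genes. Mrpl40, a large subunit protein, was listed at 0 FPKM in every library. A gene is said to have risen or fallen where limma, fitted on log2(FPKM + 1) over all 9 libraries, gave a Benjamini-Hochberg adjusted p below 0.05. Fold changes are on that scale, which understates changes of low genes.

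In total 10 of the 65 genes changed in at least 1 of the 3 comparisons and 55 in none. Promoters of 7 of the 10 are shown so that each comparison and direction below has at least 1 example, and 55 of the 66 genes had a promoter in the RefSeq table of the assembly GRCr8. Each line runs 5′ to 3′ on the gene's strand from 150 bases before to 30 bases after the annotated start. Capitals mark GCGCANGCG (the motif of NRF1, a regulator of nuclear genes for mitochondria), CCGGAAG (the ETS family, which includes GABPA) and AAGATGGC (YY1), on either strand. The positions are chr1:207116780-207116959, plus strand for Mrpl23, chr10:101145192-101145371, plus strand for Mrpl58, chr5:143605991-143606170, plus strand for Mrps15 and chr9:22811204-22811383, minus strand for Mrpl14. Those of the others are chr10:80092195-80092374, plus strand for Mrpl27, chr2:52195875-52196054, minus strand for Mrps30 and chr15:36086307-36086486, plus strand for Mrpl57.
Mrpl23: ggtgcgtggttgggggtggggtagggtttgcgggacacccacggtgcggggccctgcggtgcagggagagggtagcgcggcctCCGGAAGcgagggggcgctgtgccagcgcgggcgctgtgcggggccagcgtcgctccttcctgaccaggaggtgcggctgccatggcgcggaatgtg
Mrpl58: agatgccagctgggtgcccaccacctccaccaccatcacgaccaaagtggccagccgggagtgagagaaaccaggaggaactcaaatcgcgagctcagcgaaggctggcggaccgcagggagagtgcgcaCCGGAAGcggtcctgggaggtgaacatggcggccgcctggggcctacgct
Mrps15: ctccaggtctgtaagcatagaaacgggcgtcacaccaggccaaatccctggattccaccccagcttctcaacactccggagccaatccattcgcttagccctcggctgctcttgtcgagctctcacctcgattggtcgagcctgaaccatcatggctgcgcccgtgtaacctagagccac
Mrpl14: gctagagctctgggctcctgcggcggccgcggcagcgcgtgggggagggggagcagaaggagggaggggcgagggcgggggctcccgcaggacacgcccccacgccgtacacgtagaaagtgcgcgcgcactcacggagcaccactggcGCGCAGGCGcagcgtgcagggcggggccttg
Mrpl27: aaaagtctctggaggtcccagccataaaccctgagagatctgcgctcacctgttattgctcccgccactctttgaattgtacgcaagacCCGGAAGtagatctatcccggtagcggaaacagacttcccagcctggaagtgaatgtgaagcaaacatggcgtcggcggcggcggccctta
Mrps30: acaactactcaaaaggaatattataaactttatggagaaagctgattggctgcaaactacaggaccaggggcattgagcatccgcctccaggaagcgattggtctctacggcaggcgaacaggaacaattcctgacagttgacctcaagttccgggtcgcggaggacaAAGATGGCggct
Mrpl57: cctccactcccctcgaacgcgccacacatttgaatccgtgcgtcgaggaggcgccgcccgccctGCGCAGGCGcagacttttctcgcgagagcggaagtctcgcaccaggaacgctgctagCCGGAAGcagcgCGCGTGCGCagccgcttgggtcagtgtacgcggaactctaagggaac

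Over the whole 300-base windows, the NRF1 motif was in 20% of the 55 promoters, against 13.8% of the promoters of tested genes and 6.26% of all 27457 promoters in the table. The ETS motif was in 34.5%, against 19.7% and 9.22%. The YY1 motif was in 23.6%, against 6.0% and 3.44%. At least 1 of these 3 motifs was in 60.0% of the promoters of mitochondrial ribosomal protein genes, 33.8% of those of tested genes and 16.7% of all. The E-box CACGTG of Myc and Max was in 10.9%, 9.76% and 6.65%, and the NF-Y box CCAAT in 45.5%, 38.6% and 37.7%. The median GC content of these promoter sets was 56.3%, 60.3% and 52.3%, in the same order. The matches are a description of these letters and say nothing about occupancy. Both directions of change are among the genes shown: the ETS motif stands before Mrpl23, Mrpl58 and Mrpl27, which fell, and before Mrpl57, which was higher at day 28 than at day 1.

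Mitochondrial ribosomal protein transcripts were of moderate abundance. The median over the 65 genes of the mean FPKM was 36.3, against 17.1 for all tested genes. Mrpl23, which lies at the exit of the large subunit's peptide tunnel, had the highest mean FPKM (323), followed by the small subunit protein Mrps21 (267) and the large subunit proteins Mrpl54 (265), Mrpl52 (207) and Mrpl53 (168). The lowest of the tested genes were Mrpl51 (9.53), Mrpl19 (7.33) and Mrpl15 (5.24), all of the large subunit. The 5 highest genes held 34.3% of the summed FPKM of the set, 7 genes had a mean above 100 FPKM and 4 a mean below 10. Along this order, the ranges over the 9 libraries overlapped for 64 of the 64 neighbouring pairs. Within libraries, 3 of these pairs stood in the same order in all 9: Mrpl23 above Mrps21, Mrpl52 above Mrpl53, and Mrpl53 above Mrpl20. Levels of mRNAs whose proteins sit in the same particle thus spanned from about 5.24 to 323 FPKM.

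**Figure D1:**
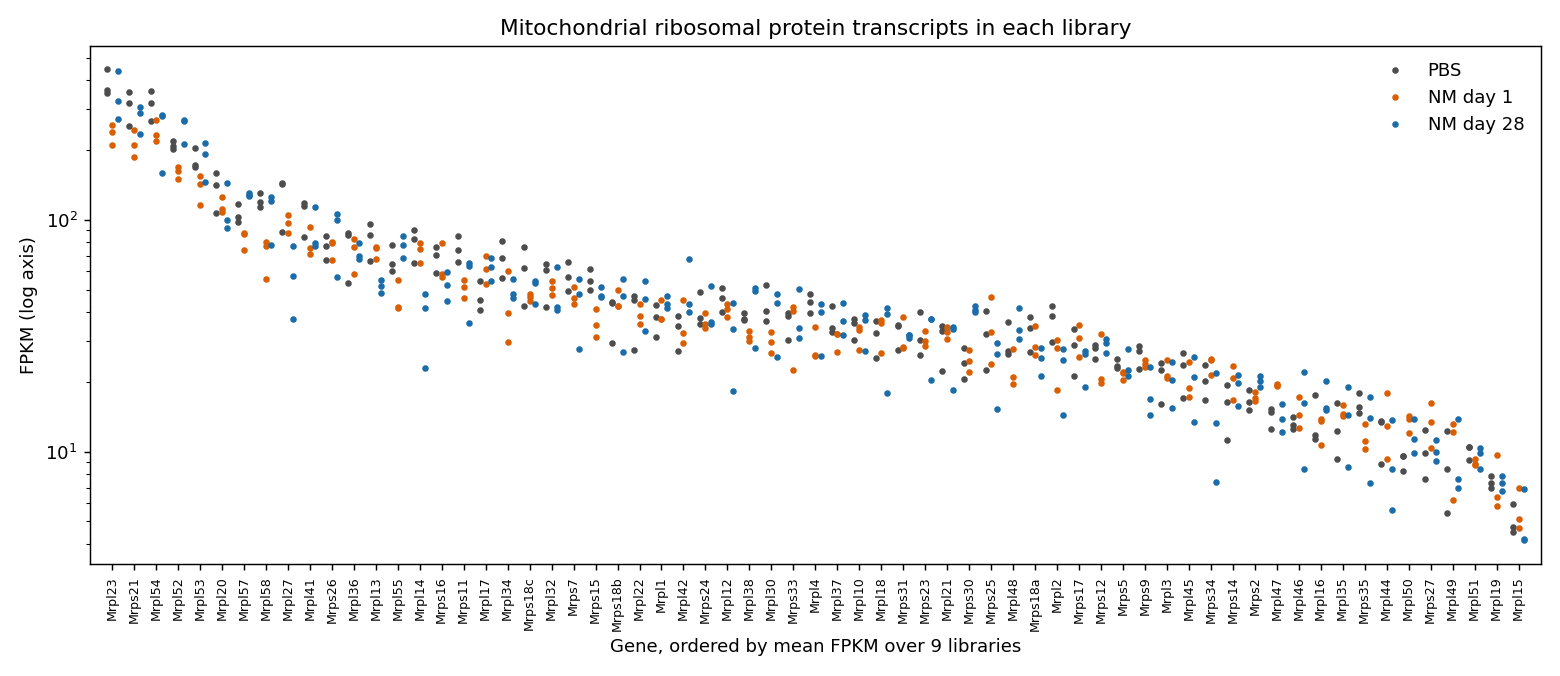
FPKM on a log axis (vertical) of the 65 tested mitochondrial ribosomal protein genes, ordered by their mean over 9 libraries (horizontal), with each point 1 library coloured by group. The order runs from Mrpl23 to Mrpl15 and the 3 groups overlap for most genes.

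Genes with other placements in the ribosome lay between these ends. Mrpl12, the stalk protein that contacts translation factors, had 50.7, 45.8 and 39.9 FPKM in the PBS libraries, 41.1, 43.3 and 38.3 at day 1 and 43.8, 18.3 and 33.9 at day 28. The groups overlapped, and none of its comparisons passed the test (adjusted p between 0.194 and 0.775). Mrps12, a protein of the decoding centre, had group means ± SD of 27.3 ± 1.90, 24.1 ± 6.86 and 28.9 ± 2.11 FPKM (n = 3 each). Mrpl41, found only in mitochondria, had 106 ± 18.8, 79.8 ± 11.5 and 90.1 ± 20.7 FPKM, and Mrpl44 had 11.9 ± 2.66, 13.4 ± 4.36 and 9.24 ± 4.15 FPKM. Neither these genes nor the 3 related genes Mrps18a, Mrps18b and Mrps18c passed the test in any comparison. Mrps18c, of the small subunit, had the highest mean of the 3 in each group, 60.3, 46.3 and 50.5 FPKM. Mrps18b followed with 39.1, 45.0 and 43.1 FPKM, and Mrps18a with 33.1, 29.7 and 24.8 FPKM.

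Members of the set were high or low together within single libraries. The summed FPKM of the set was 4165, 4310 and 3376 in PBS replicates 0, 1 and 2, then 3201, 3009 and 3427 at day 1, and 4063, 2917 and 3849 at day 28. Total FPKM per library differed too, at 900600 ± 97120 in PBS, 732700 ± 37590 at day 1 and 785000 ± 66700 at day 28 (SD, n = 3). The upper quartile over transcripts stayed between 19.12 and 19.65 FPKM. The part of the scaling in the lower sums and in the falls at day 1 was not tested. As a share of all FPKM in a library the set took 0.438% ± 0.0165 in PBS, 0.438% ± 0.0148 at day 1 and 0.458% ± 0.0422 at day 28 (SD, n = 3). The shares of the 3 groups thus lay within the spread of the day 28 libraries. Gene by gene, PBS replicate 2 was the lowest of its group for 55 of the 65 genes (84.6%, against 41.7% of all tested genes). In the NM groups, replicate 1 was the lowest for 42 genes at day 1 (64.6%, against 34.7%) and for 52 at day 28 (80.0%, against 39.5%). NM day 28 replicate 1 was the lowest of all 9 libraries for 31 of the genes.

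The median over the set of each library's log2 deviation from the gene's mean was 0.23, 0.15 and -0.10 in PBS, -0.06, -0.14 and 0.03 at day 1, and 0.17, -0.28 and 0.13 at day 28. Over all tested genes the same median stayed between -0.0191 and 0.0372. For cytosolic ribosomal proteins it was 0.29, 0.24 and 0.00 in PBS, -0.08, -0.33 and 0.07 at day 1, and 0.20, -0.43 and 0.09 at day 28. For nuclear genes of oxidative phosphorylation subunits it was 0.39, 0.26 and -0.21, then -0.02, -0.11 and 0.06, then 0.05, -0.35 and -0.02. In all 3 lists PBS replicate 2 was the lowest PBS library and NM day 28 replicate 1 the lowest of the 9. Depth relative to NM day 1 replicate 0, read from the steps of the low FPKM values, was 2.58, 1.86 and 1.42 in PBS, 1.0, 1.36 and 1.47 at day 1 and 1.07, 1.04 and 1.12 at day 28. Its part in these library differences was not tested.

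**Figure D2:**
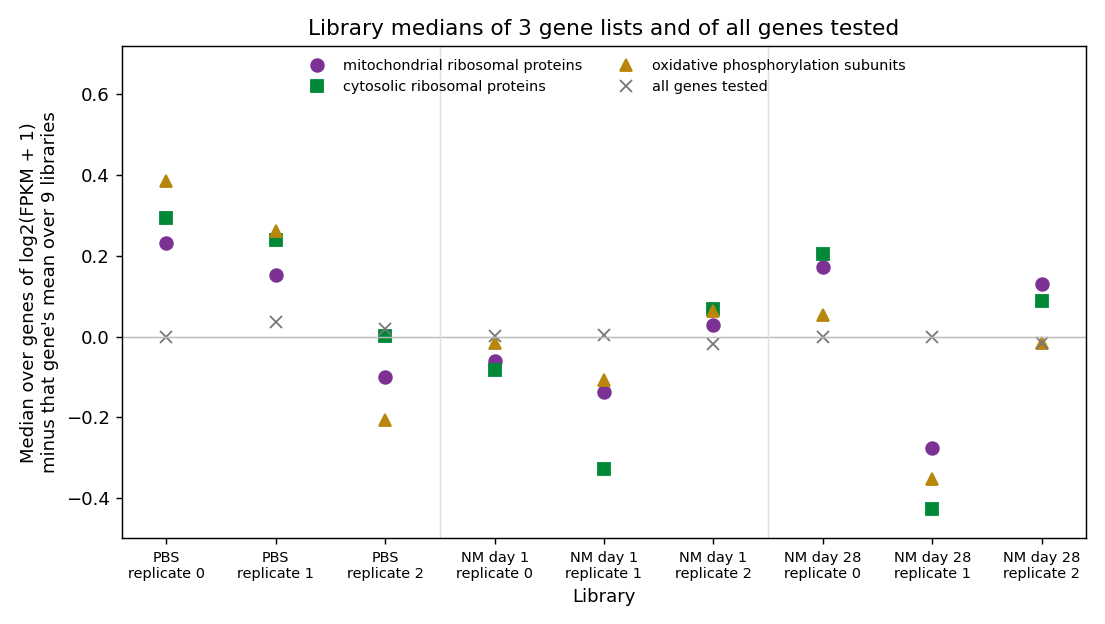
Median over genes of log2(FPKM + 1) minus the gene's mean over 9 libraries (vertical) for each library (horizontal), for mitochondrial ribosomal proteins, cytosolic ribosomal proteins, oxidative phosphorylation subunits and all tested genes. PBS replicate 2 and NM day 28 replicate 1 lie below the other libraries of their groups for the 3 lists, while all tested genes stay near 0.

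At day 1 after NM, 3 mitochondrial ribosomal protein genes fell and 0 rose against PBS. Those that fell were Mrpl23 of the tunnel exit, Mrpl58 (also named ICT1), a large subunit protein that can release peptides from stalled ribosomes, and Mrps15, an rRNA-binding protein of the small subunit. The 3 genes are 4.62% of the 65, and 4.58% of all tested genes fell and 5.28% rose in this comparison, so the share that fell was that of the background. At an unadjusted p below 0.05, limma put 12 genes lower (18.5%, against 13.7% of all tested genes) and 3 higher (4.62%, against 11.6%).

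Mrpl23 had 365, 446 and 352 FPKM in the PBS libraries and 240.3, 211 and 256 at day 1. Every day 1 library lay below every PBS library, and the fitted log2 change was -0.71 (SE 0.19, adjusted p = 0.0374). Mrpl58 had 119.5, 130 and 114 FPKM in PBS and 55.6, 80.3 and 77.4 at day 1. These groups did not overlap either, with a change of -0.78 (SE 0.20, adjusted p = 0.0336). Mrps15 had 54.5, 61.3 and 49.6 FPKM in PBS and 35.0, 31.3 and 41.3 at day 1, again without overlap (change -0.61, SE 0.16, adjusted p = 0.0304). At day 28 the same genes had 346 ± 85.6, 108 ± 26.3 and 48.3 ± 2.72 FPKM, in the order Mrpl23, Mrpl58, Mrps15, and none of these differed from PBS by the test (adjusted p = 0.61, 0.61 and 0.518).

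Among the other genes, 7 had log2 changes below -0.5 without passing the test. They included Mrpl34 (-0.70, adjusted p = 0.0788), a conserved large subunit protein chosen after its values were seen, whose change was larger than that of Mrps15. The median log2 change at day 1 was -0.12 over the 65 genes and -0.04 over all tested genes, with 43 genes below 0 and 22 above. The range ran from -0.78 to 0.51, so 0 of the 65 passed 2-fold in either direction, against 5.77% of all tested genes. The groups did not overlap for 15 genes that were lower (23.1% of the set, against 18.1% of all tested genes) and for 2 that were higher (3.08%, against 15.2%). Large subunit proteins gave 2 of the 3 calls among 43 tested, and small subunit proteins the other among 22. In bulk RNA, fewer cells of a type and less RNA per cell cannot be told apart.

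The 3 calls depended on single libraries, as did many of the calls over all tested genes. Without PBS replicate 0 the adjusted p was 0.07 for Mrpl23, 0.0759 for Mrpl58 and 0.0716 for Mrps15, and without PBS replicate 1 it was 0.165, 0.129 and 0.147. Without NM day 1 replicate 0 it was 0.12, 0.16 and 0.111, without NM day 1 replicate 1 it was 0.121, 0.056 and 0.104, and without NM day 1 replicate 2 Mrpl23 and Mrpl58 were at 0.0635 and 0.0572. In these fits, in the order given, 2.15%, 0.789%, 0.668%, 1.99% and 2.87% of all tested genes fell, against 4.58% with all libraries. The log2 change of Mrpl23 in them ran from -0.771 to -0.605 and that of Mrpl58 from -0.873 to -0.611. Mrpl58 was also lost without PBS replicate 2 (0.0553) and Mrpl23 without NM day 28 replicate 2 (0.0557). Without NM day 28 replicate 1, which enters through the shared spread, 6 genes fell (9.23%, against 7.26% of all tested genes in that fit). After quantile normalisation the 3 genes were at 0.0941, 0.0884 and 0.065, with no filter Mrpl23 and Mrpl58 were at 0.0528 and 0.0531, and after median-of-ratios scaling Mrpl23 was at 0.0507.

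**Figure D3:**
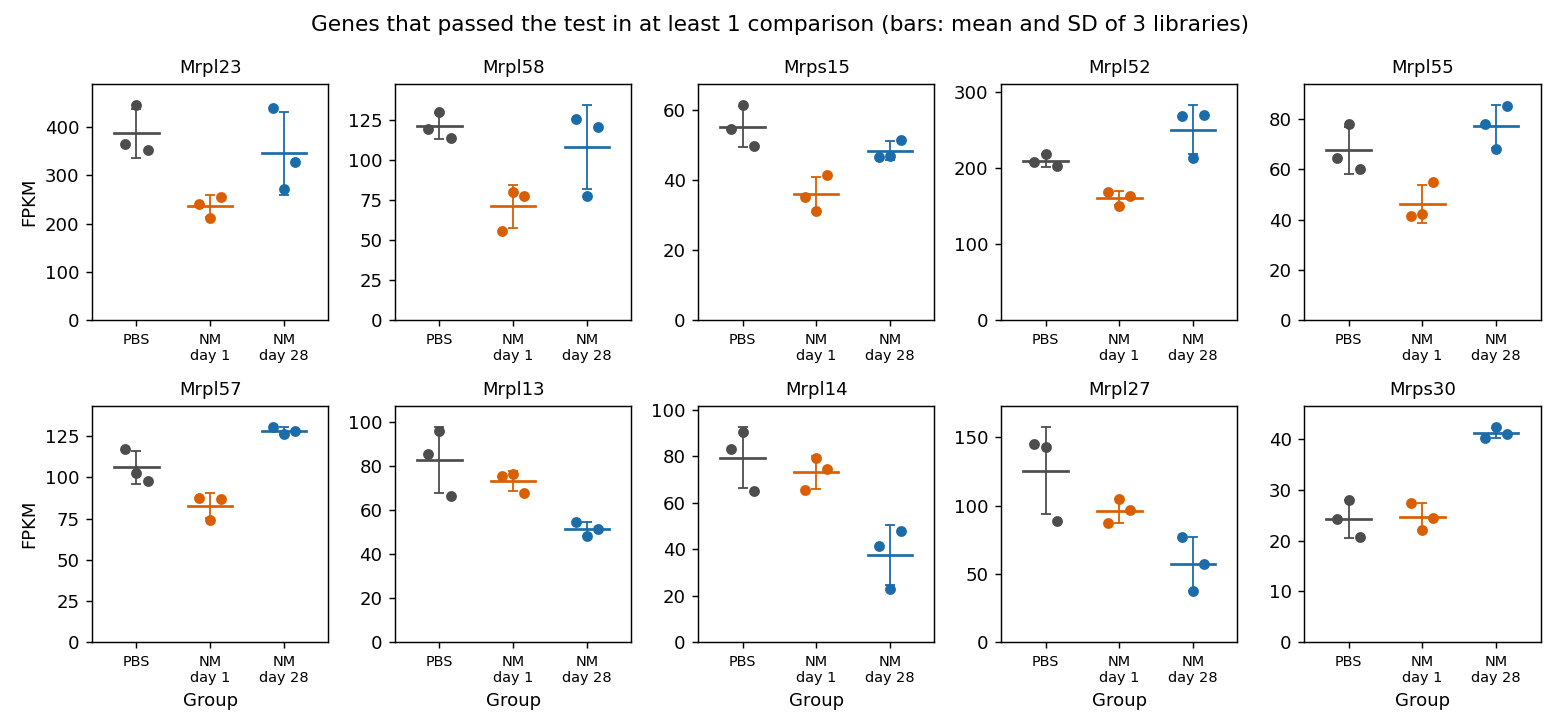
FPKM (vertical, linear from 0) by group (horizontal) for the 10 mitochondrial ribosomal protein genes that passed the test in at least 1 comparison; points are libraries, and bars give the mean and SD of 3. Mrpl23, Mrpl58 and Mrps15 are lowest at day 1, Mrpl13, Mrpl14 and Mrpl27 lowest at day 28, and Mrps30 highest at day 28.

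At day 28 after NM, 3 genes had fallen against PBS and 1 had risen. Mrpl14 and Mrpl27 fell by more than 2-fold. Mrpl14 is a conserved protein on the face of the large subunit that meets the small one, Mrpl27 lies close to the site of peptide bond formation and Mrpl13 is a conserved large subunit protein. Mrps30, which rose, is a mitochondrion-specific protein of the large subunit. The falls make 4.62% of the set, against 3.98% of all tested genes, and the rise 1.54%, against 3.07%, so neither share stood far from the background. All 4 genes belong to the large subunit, to which 43 of the tested genes of the set belong. Of the 22 tested small subunit genes of the set, 0 passed limma's threshold. At an unadjusted p below 0.05 were 8 large subunit genes (18.6%) and 2 small subunit genes (9.09%), against 23.9% of all tested genes. The difference between subunits was not tested. Ptcd3, a small subunit gene without the Mrps prefix and so outside the set, rose at day 28 (log2 change 1.96, limma adjusted p = 0.000362).

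Mrpl14 had 83.1, 90.4 and 65 FPKM in PBS and 41.6, 23.0 and 48.0 at day 28. The groups were separate, and the log2 change was -1.11 (SE 0.24, adjusted p = 0.017). Mrpl27 had 144.7, 143.0 and 89.0 FPKM in PBS and 76.9, 37.5 and 57.4 at day 28, with PBS replicate 2 closest to the treated libraries (change -1.14, SE 0.25, adjusted p = 0.0189). Mrpl13 had 85.8, 96.1 and 66.7 FPKM in PBS and 54.8, 48.2 and 51.6 at day 28, a narrow treated group below all of PBS (change -0.66, SE 0.16, adjusted p = 0.0307). For all 3 of these genes the lowest value was that of NM day 28 replicate 1, the library in which most of the set was low. Mrps30 had 24.2, 28.0 and 20.6 FPKM in PBS and 40.2, 42.3 and 41.0 at day 28. Its treated libraries lay close together above every PBS library, NM day 28 replicate 1 included, and the change was 0.75 (SE 0.16, adjusted p = 0.0171).

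Over the 65 genes the median log2 change at day 28 was -0.04, the same to 2 decimals as over all tested genes, with 40 genes below 0 and 25 above. The range was -1.14 to 0.75, and 2 genes (3.08%) passed 2-fold, against 5.38% of all tested genes. Groups did not overlap for 6 genes in each direction (9.23% each way, against 12.7% of all tested genes higher and 14.4% lower). Leaving out PBS replicate 0 put Mrpl14, Mrpl27 and Mrpl13 at adjusted p = 0.0509, 0.065 and 0.086, and leaving out PBS replicate 1 put them at 0.0832, 0.0904 and 0.158. Mrpl13 was also lost without NM day 28 replicate 0 (0.0608), replicate 1 (0.0529) or replicate 2 (0.0816), and without that last library Mrpl27 was at 0.0531 and Mrps30 at 0.0544. A fit of only the 6 libraries compared put Mrpl14, Mrpl27 and Mrpl13 at 0.0545, 0.0593 and 0.0719, and Mrpl27 was at 0.0501 with no filter. Over all tested genes 3.98% fell with all libraries, and 2.22% and 1.18% without PBS replicates 0 and 1. That share was 2.67%, 4.31% and 2.16% without NM day 28 replicates 0, 1 and 2. It was 2.14% with only the 6 libraries compared and 2.09% with no filter.

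**Figure D4:**
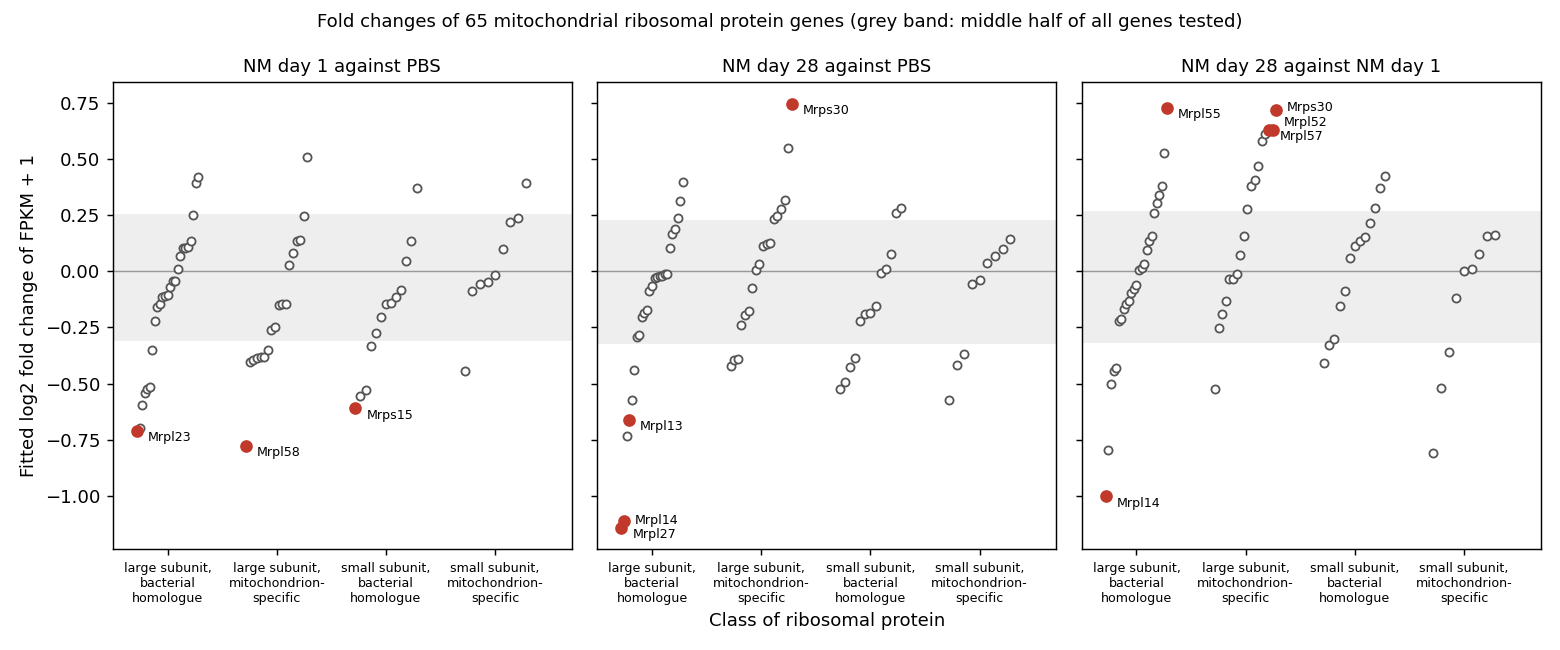
Fitted log2 change (vertical) of the 65 tested genes in 3 comparisons (panels), grouped by subunit and by bacterial homology (horizontal) and ordered within each class; filled points passed the adjusted p of 0.05 and the grey band spans the first to the third quartile of all tested genes. Most open points lie in or near the band, and the filled points are the 10 genes named in the text.

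Between the NM groups, 4 genes were higher at day 28 than at day 1 and 1 was lower. Higher were Mrps30, Mrpl52 and Mrpl57, all large subunit proteins specific to mitochondria, and Mrpl55, the homologue of a bacterial large subunit protein. Lower was Mrpl14. The shares were 6.15% higher, against 4.75% of all tested genes, and 1.54% lower, against 6.88%.

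Mrpl57 had 87.4, 74.0 and 87.1 FPKM at day 1 and 130.4, 126.4 and 128.0 at day 28, a separation with little spread at day 28 (log2 difference 0.63, SE 0.14, adjusted p = 0.0139). PBS lay between, at 117.0, 102.9 and 98.0 FPKM. Mrpl55 had 41.6, 42.3 and 54.9 FPKM at day 1 and 78.0, 68.2 and 85.1 at day 28 (difference 0.73, SE 0.17, adjusted p = 0.0163). Its PBS libraries, at 64.4, 78.1 and 60.2 FPKM, overlapped those of day 28. Mrpl52 had 168.5, 150.3 and 163.0 FPKM at day 1 and 268, 213.5 and 269.9 at day 28 (difference 0.63, SE 0.15, adjusted p = 0.0169), with PBS at 210 ± 8.25. These 3 genes thus had their lowest mean at day 1, though none of them passed the test against PBS at either time. Mrps30 had 27.4, 22.2 and 24.5 FPKM at day 1, level with PBS, and its difference of 0.72 (SE 0.16, adjusted p = 0.0142) came with the day 28 libraries. Mrpl14 had 65.4, 79.3 and 74.7 FPKM at day 1, within its PBS range, and was lower at day 28 by a log2 difference of -1.0 (SE 0.24, adjusted p = 0.0192).

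The median difference was 0.01 over the 65 genes and 0.00 over all tested genes, with 36 above 0 and 29 below, and 1 gene (1.54%) passed 2-fold, against 7.82%. Groups did not overlap for 9 genes that were higher (13.8%, against 15.1%) and 5 that were lower (7.69%, against 15.7%). Without NM day 1 replicate 1 none of the 5 calls remained, with adjusted p of 0.0613 for Mrps30, 0.0619 for Mrpl57, 0.0663 for Mrpl55, 0.0676 for Mrpl52 and 0.0741 for Mrpl14. In that fit 2.42% of all tested genes were higher and 3.99% lower, against 4.75% and 6.88% with all libraries. Mrpl14 was also lost without NM day 1 replicate 2 (0.0609) and Mrpl55 without NM day 1 replicate 0 (0.0674). Without NM day 28 replicate 0, Mrpl52, Mrpl55 and Mrpl57 were at 0.0709, 0.0532 and 0.0517, and without replicate 2 of that group Mrpl52 and Mrpl55 were at 0.0687 and 0.0645. Of all tested genes 2.28% and 2.69% were higher in these fits, in the same order. Without NM day 28 replicate 1, 10 genes were higher (15.4%, against 6.35% of all tested genes in that fit). Without NM day 28 replicate 0 or PBS replicate 2, 3 were lower (4.62%, against 5.04% and 7.2%).

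Some of these genes share their locus with others, and the strand used in counting was not given in the sources used here. In the GRCr8 annotation 16 of the 66 genes overlap another gene, among them Mrpl14 (Tmem63b), Mrpl27 (Eme1), Mrpl55 (Guk1) and Mrpl57 (Ska3). Eme1 had mean levels of 1.24, 1.74 and 0.564 FPKM in PBS, day 1 and day 28, and Ska3 1.88, 2.20 and 0.811, both far below their partners. Guk1 had 112, 98.0 and 70.5 FPKM, and none of the 3 passed the test. No transcript was listed under the symbol Tmem63b, so the partner of Mrpl14 could not be checked. Pseudogenes are annotated for 21 of the 66 genes, and among the 10 that changed only Mrpl23 has one, so reads of Mrpl23 could be split or shared.

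Of the 5 ribosomal subunits that carry other symbols, Ptcd3 changed most. Ptcd3, an RNA-binding pentatricopeptide protein of the small subunit, had 20.7, 21.4 and 19.3 FPKM in PBS, 28.3, 25.1 and 27.1 at day 1 and 71.5, 114 and 68.4 at day 28. The day 28 libraries stood far above the rest, with log2 changes of 1.96 against PBS (SE 0.19, adjusted p = 0.000362) and 1.58 against day 1 (SE 0.19, adjusted p = 0.000534). The other 4, Dap3 among them, did not pass in any comparison. The list thus had 1 of 5 genes higher at day 28 than in PBS, against 3.07% of all tested genes. Between the NM groups it had 1 of 5 higher at day 28, against 4.75%. At an unadjusted p below 0.05 were 1 of 5 at day 1, 2 of 5 at day 28 and 3 of 5 at day 28 against day 1. All tested genes gave 25.3%, 23.9% and 26.9%, in the same order. Dap3, a GTP-binding protein of the small subunit, had 37.0 ± 0.304, 40.8 ± 5.10 and 36.5 ± 3.64 FPKM.

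Among 26 tested genes of mitochondrial ribosome assembly and rRNA modification, 2 were higher at day 28 than at day 1 (7.69%, against 4.75% of all tested genes). Against PBS, 0 passed limma at either time, with 1 (3.85%) at day 1 and 5 (19.2%) at day 28 at an unadjusted p below 0.05, where all tested genes gave 25.3% and 23.9%. The 2 genes were Malsu1, an assembly factor that binds the Mrpl14 protein, and Tfb1m, which methylates the small subunit's rRNA. Malsu1 had 13.6, 14.4 and 19.5 FPKM at day 1 and 41.6, 21.7 and 28.8 at day 28 (log2 difference 0.88, SE 0.26, adjusted p = 0.0488). Tfb1m had 19.8, 17.8 and 19.7 FPKM at day 1 and 28.1, 39.4 and 26.4 at day 28 (difference 0.66, SE 0.18, adjusted p = 0.0379). Both groups were separate, but the difference of Malsu1 was close to the threshold. Among 16 tested genes for translation factors and other proteins tied to mitochondrial translation, 1 fell at day 1 (6.25%, against 4.58% of all tested genes). This was Oxa1l, which inserts new proteins into the inner membrane and went from 77.2, 76.1 and 64.8 FPKM to 49.3, 44.8 and 56.6 (log2 change -0.53, SE 0.15, adjusted p = 0.0477). Tufm, the mitochondrial elongation factor Tu, had 31.0 ± 9.76, 30.1 ± 3.26 and 32.7 ± 11.2 FPKM and did not pass.

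Among 16 tested genes of mitochondrial transcription and genome maintenance, 1 was higher at day 28 than at day 1 (6.25%, against 4.75% of all tested genes). Against PBS, 0 passed limma at either time, with 1 (6.25%) at each time at an unadjusted p below 0.05, against 25.3% and 23.9%. The gene was Polrmt, the mitochondrial RNA polymerase. It had 22.5, 15.3 and 20.4 FPKM at day 28 and 12.4, 12.6 and 11.4 at day 1, with a log2 difference of 0.62 (SE 0.18, adjusted p = 0.0468). Tfam, which packages mitochondrial DNA, had 19.6 ± 5.24, 19.0 ± 0.729 and 19.1 ± 1.70 FPKM. Of 18 genes that serve the charging of mitochondrial tRNAs and 9 nuclear regulators, 0 passed limma's test in any comparison. The charging genes are aminoacyl tRNA synthetases apart from Qrsl1 and Gatc. At an unadjusted p below 0.05, the charging genes counted 1, 3 and 0 and the regulators 2, 1 and 0, in the order day 1, day 28 and day 28 against day 1. The shares of all tested genes were 25.3%, 23.9% and 26.9%, against 5.56%, 16.7% and 0% of the charging genes and 22.2%, 11.1% and 0% of the regulators. The regulators Nrf1, Gabpa, Ppargc1b and Myc had PBS means of 15.1, 4.90, 11.8 and 70.8 FPKM, day 1 means of 12, 7.31, 8.88 and 72.4, and day 28 means of 11.0, 6.47, 14.2 and 66.8. The calls of Oxa1l, Malsu1, Polrmt and Tfb1m held in 5, 5, 5 and 11 of 18 alternative fits, and those of Ptcd3 in 18 of 18. The highest adjusted p was 0.18 for Oxa1l without PBS replicate 1, 0.166 for Malsu1 and 0.155 for Polrmt without NM day 28 replicate 0, and 0.12 for Tfb1m without NM day 1 replicate 1.

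Beside these lists, 0 of 79 tested cytosolic ribosomal protein genes passed limma at day 1, with a median log2 change of -0.33. At an unadjusted p below 0.05 were 16 of them (20.3%, against 25.3% of all tested genes). By direction, 15 were lower (19.0%, against 13.7%) and 1 higher (1.27%, against 11.6%). At day 28, 2 rose and 2 fell against PBS (2.53% each, against 3.07% and 3.98%), with a median of -0.23. Of 74 oxidative phosphorylation genes, 3 fell at day 1 (4.05%, against 4.58%, median -0.18). At day 28, 6 fell (8.11%, against 3.98%) and 1 rose (1.35%, against 3.07%), with a median of -0.27. The medians of both lists were further below 0 than those of the mitochondrial ribosomal proteins at both times, and this difference between lists was not tested.

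Markers of other cell types differed between the groups. Of those tested, 6 of 7 monocyte, 5 of 5 neutrophil and 6 of 7 alveolar epithelial markers rose at day 1, against 5.28% of all tested genes. Of T cell markers 2 of 6 rose, and of airway epithelial markers 0 of 3 rose and 1 fell. Against PBS at day 28, 4 of 5 neutrophil and 2 of 7 monocyte markers rose (3.07% of all tested genes). There 1 of 7 alveolar epithelial markers fell (3.98%). Of 6 alveolar macrophage markers 1 rose and 1 fell at each time. Summed FPKM of the monocyte markers (8 of 8 in the table) was 4.49 to 8.95 in PBS, 102 to 142 at day 1 and 22.3 to 28.0 at day 28, and Ccr2 and Ly6c were listed at 0 in all PBS libraries. Neutrophil markers (7 of 8) summed to 21.0 to 49.1, 491 to 858 and 189 to 677 FPKM, and alveolar epithelial markers (8 of 8, Sftpd listed at 0 throughout) to 187 to 276, 878 to 2921 and 221 to 303. T cell markers (7 of 7) summed to 15.9 to 26.6, 35.8 to 46.8 and 17.6 to 28.4 FPKM, airway epithelial markers (3 of 5) to 1457 to 7581, 1453 to 3389 and 891 to 1395, and erythroid markers (2 of 4) to 128 to 559, 135 to 207 and 124 to 173. Alveolar macrophage markers (7 of 10) summed to 1554 to 2939, 1563 to 1791 and 1809 to 2034 FPKM, and Marco was listed at 0 in every library. The part of these other cells in the changes of mitochondrial ribosomal protein genes was not tested.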

How the data were processed

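TopHat, Cuffdiff and the build rn4 are named in the submitters' processing notes; versions, gene models, strand and the rule for multiply mapped reads are not given in the sources used here. Each of the 9 libraries has FPKM values, as the authors deposited them, for 18197 RefSeq transcripts. A RefSeq table (GRCr8) named 17189 of them (94.5%), and transcripts of a symbol were summed to 17109 genes. FPKM keep no absolute depth, so no counting error is given.

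Genes with at least 1 FPKM in at least 3 libraries (9885) were fitted as log2(FPKM + 1) with limma 3.58.1 in R 4.3.3 (empirical Bayes with trend, 3 group means, all libraries), with Benjamini-Hochberg adjustment over all of them. The script was tested on simulated data. Alternatives changed the pseudocount, filter, scaling, summing, block and libraries.

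Members and lists were chosen with earlier results of these data known. Genes named were the members that passed (up to 8 per direction), the 5 highest and 3 lowest, 10 fixed members (Mrps36 had no row that matched), up to 3 genes that passed in each other list and 7 fixed genes. Overlapping partners were named after their values were seen.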

Additional observations from a re-analysis of the deposited data

Results flagged for a closer look

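The effects of NM at day 1 and at day 28, taken against the same PBS libraries, differed by limma's test of day 28 against day 1 (log2 scale, adjusted over all tested genes) for 9 of the named genes. Mitochondrial ribosomal proteins among them were Mrps30 (0.72), Mrpl55 (0.73), Mrpl52 (0.63), Mrpl57 (0.63) and Mrpl14 (-1.0). The others were the ribosomal subunit gene Ptcd3 (1.58), Malsu1 (0.88), Tfb1m (0.66) and Polrmt (0.62). Positive values mean a higher level at day 28. The naming rule took in genes that passed this comparison, so the number 9 follows from that choice. Of the 65 mitochondrial ribosomal protein genes 6.15% were higher and 1.54% lower, against 4.75% and 6.88% of all tested genes. Groups of 3 libraries were not tested for outlying samples.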

How the results depend on the processing

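FPKM without counts and 3 libraries per group limit these results, and low genes cannot be judged for counting error. Of 114 counts of genes that passed under alternatives, 88 stayed within 1.5 times the reported count. The 88 include counts of 0 against a reported 0, as for genes that rose at day 1 in every alternative. The 114 counts and the 57 medians below include the alternative that was added after seeing the data. The medians lie nearer to 0 than the SD of 0.18 between libraries of a group, and 6 of 57 medians under alternatives changed sign, so the sign of the day 28 medians is not fixed by these data. The count that fell at day 1 was 3, and it was 1 with no filter, 5 with only the 6 libraries compared, 0 after quantile normalisation and 0 with the replicate number as a block. These are 4.62%, 1.54%, 7.69%, 0% and 0% of the set, against 4.58%, 2.98%, 5.12%, 3.11% and 3.51% of all tested genes. The count that fell at day 28 was 3 (4.62%, against 3.98%), and 0 with only the 6 libraries compared (0%, against 2.14%). The count lower at day 28 than at day 1 was 1 (1.54%, against 6.88%), and 3 after quantile normalisation (4.62%, against 6.1%). The cause was not tested.

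The replicate block left 347 genes that fell at day 1 over all tested genes, against 453 without it. Correlations of deviations between libraries of the same number ran from -0.104 to 0.196, and those between different numbers from -0.260 to 0.248. Not every library correlated best with its own number. With so few libraries per group, these values cannot settle whether the numbers pair the libraries.

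Leaving out 1 library at a time gave 0 to 6 genes that fell and 0 to 0 that rose at day 1, 0 to 3 and 0 to 1 at day 28, and 0 to 3 lower and 0 to 10 higher at day 28 against day 1. The highest shares of the set were 9.23%, 0%, 4.62%, 1.54%, 4.62% and 15.4%, in the order of the counts. Over all tested genes the same fits gave 0.668% to 7.26% that fell and 2.55% to 6.64% that rose at day 1. At day 28 these shares were 1.18% to 4.31% and 1.56% to 3.71%. Between the NM groups 3.99% to 7.84% were lower and 2.28% to 6.35% higher. The medians of the set ran from -0.23 to -0.05 at day 1, from -0.159 to 0.07 at day 28 and from -0.055 to 0.184 between the NM groups. Where leaving out 1 library left 2 libraries in a group, they were assumed to vary like the others.

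One alternative was added after seeing the data: PBS replicate 2 and NM day 28 replicate 1 were left out together because most mitochondrial ribosomal protein genes were lowest of their group in them. It gave 12 genes that fell and 0 that rose at day 1, 3 and 1 at day 28, and 4 lower and 12 higher between the NM groups. Since the libraries were picked by the levels of these same genes, these higher counts are no independent support. In the order of the counts, these are 18.5%, 0%, 4.62%, 1.54%, 6.15% and 18.5% of the set, against 8.98%, 6.2%, 5.55%, 3.45%, 9.65% and 8.12% of all tested genes in the same fit.

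Comparisons of named genes that had not passed the test changed sign in 69 values, all with an adjusted p of at least 0.257. After quantile normalisation the log2 changes at day 1 were 0.0125 for Mrpl13, 0.0711 for Mrpl14, -0.0817 for Mrpl15, 0.00487 for Tfam and 0.0653 for Tufm. At day 28 they were 0.0176 for Dap3, 0.0493 for Mrpl23, 0.0578 for Mrps21 and 0.0178 for Tfam, and for Mrpl15 between the NM groups 0.0506. Median-of-ratios scaling gave Tfam 0.0266, 0.0157 and -0.0108 in the 3 comparisons, Tufm 0.0338 at day 1 and Mrpl19 0.00663 at day 28. The added alternative gave Mrpl44 -0.0501 and Mrps30 -0.0786 at day 1, Mrpl15 0.0472 and Myc 0.01 at day 28, and Mrpl54 0.236 and Mrps18b 0.182 between the NM groups.

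With 1 library left out, log2 changes at day 1 ran from -0.0353 to 0.211 for Mrpl15, -0.242 to 0.08 for Mrpl19, -0.0873 to 0.355 for Mrpl44, -0.0786 to 0.133 for Mrps30, -0.0906 to 0.141 for Myc, -0.188 to 0.178 for Tfam and -0.191 to 0.228 for Tufm. At day 28 they ran from -0.102 to 0.0253 for Dap3, -0.224 to 0.0822 for Mrpl15, -0.0608 to 0.0347 for Mrpl19, -0.134 to 0.0021 for Mrpl51, -0.114 to 0.163 for Mrpl53, -0.32 to 0.0228 for Mrpl58, -0.11 to 0.401 for Mrps18b, -0.202 to 0.0289 for Myc, -0.183 to 0.183 for Tfam and -0.14 to 0.364 for Tufm. Between the NM groups they ran from -0.334 to 0.0135 for Mrpl15, -0.0931 to 0.229 for Mrpl19, -0.0214 to 0.271 for Mrpl41, -0.176 to 0.236 for Mrpl54, -0.329 to 0.182 for Mrps18b, -0.0634 to 0.0465 for Tfam and -0.136 to 0.369 for Tufm.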
